A study of Mus musculus with 12 samples.

Results

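The genes described here are the glucocorticoid receptor and 8 genes known to respond to it, 9 genes in all out of 14988 on which a peak was called in either list. A peak was taken when its assigned gene symbol was one of the 9 or when it had been called on the identifier of one of them, which gave 20 of 27292 peaks in the OVA list and 19 of 26102 in the PBS list. The assigned symbol alone found 17 and 16 of them. The other 3 in each list carried the symbol of another gene.

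The study asked how N6-methyladenosine (m6A), a methyl mark on RNA, lies across lung transcripts in a mouse model of allergic asthma. Lung RNA was fragmented after ribosomal RNA removal, and a share was pulled down with an m6A antibody (IP) while the rest served as input (MeRIP-seq). Each group had 3 mice, with 1 IP and 1 input library per mouse, 12 libraries in all. The authors deposited 1 peak list per group, so no value of a single mouse was analysed and no difference between the groups has a replicate check.

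Both groups were female BALB/c mice aged 6 to 8 weeks with no genetic modification in the labels. OVA mice were sensitised by intraperitoneal ovalbumin with aluminum hydroxide in PBS on days 0 and 7 and inhaled aerosolized ovalbumin daily from day 14 to day 20. PBS mice received phosphate-buffered saline by both routes at the same times, without allergen and without the adjuvant. Allergen and adjuvant therefore cannot be told apart. No glucocorticoid drug is named among the treatments of either group. The methods describe airway testing with methacholine under anaesthesia on day 21, before tissue was taken.

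Glucocorticoids cross the cell membrane and bind a receptor that is held ready in the cytosol by heat shock proteins and their partners. The occupied receptor enters the nucleus, where it raises transcription of some genes and lowers that of others, many inflammatory genes among them. Inhaled glucocorticoids are a mainstay of asthma treatment, and the lung is a classical target of the endogenous hormone.

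The caller used by the authors gave each peak a fold enrichment, its IP signal divided by its input signal. No scaling between the lists is stated, so folds are given side by side and compared only through percentiles, the share of a list's own peaks at or below a value. The log10 p of the caller falls further below 0 as evidence for the peak grows, and it moves with read number as well as with enrichment. Read numbers per peak were not in the lists, and folds therefore stand without intervals.

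Peaks need both RNA and mark, so the lung label was checked by presence alone. Beside the counts that follow, 55.3% of the protein-coding genes of RefSeq had an OVA peak and 53.9% a PBS peak. That base includes genes not expressed in lung. In both lists 12 of 14 lung epithelial markers had a peak, with Sftpc and Scgb3a2 in neither, and so did 5 of 5 endothelial and 5 of 5 fibroblast markers. Of 9 genes of the allergic airway, 6 had an OVA peak and 3 a PBS peak. Ccl24, Ccl8 and Clca1 were among those with one in OVA alone, and Chil3 had one in PBS alone. T cell markers numbered 6 of 7 in OVA and 4 of 7 in PBS, and eosinophil markers 3 of 6 in each, with Siglecf, Prg2 and Epx in neither. T cell, eosinophil and allergic airway counts over lists this short are not read as apart from the coding genes of RefSeq. In whole lung, more cells of a type, more RNA per cell and more of the mark on that RNA cannot be told apart from peak presence. The part of such shifts in the results that follow was not tested.

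Every one of the 9 genes carried at least 1 peak in each list. Among all genes with a peak in either list, 82% had one in both. In the OVA list, 18 of their 20 peaks shared at least 1 bp of exonic sequence with a PBS peak, against 80.6% of all OVA peaks. In the PBS list, 18 of their 19 peaks had an OVA counterpart, against 85.5% of all PBS peaks. With so few peaks, these shares are not read as apart from the background.

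Nr3c1, the glucocorticoid receptor itself, had 4 peaks in each list on the minus strand of chromosome 18, and each had a counterpart. The main one joined 3 exonic blocks between 39428779 and 39489065 in OVA and between 39428779 and 39489095 in PBS, and 1248 bp of it lay in 1 block. Its fold enrichment was 14.6 in OVA and 13.7 in PBS, at percentiles 83.8 and 83.6, with a log10 p of -1650 and -1790. The receptor's strongest-supported peak thus held the same place in both lists.

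The other Nr3c1 peaks had far weaker evidence. At the 5′ end, 30 bp inside the gene's annotated start, the OVA peak at 39519212 to 39519391 had a fold of 4.11, at percentile 38.9. Its PBS counterpart at 39519242 to 39519361 had a fold of 10.9, at percentile 75.4. This was the widest percentile gap of any matched pair of the 9 genes, but both calls had a log10 p close to the weakest seen among them, -3.34 in OVA and -2.91 in PBS. The windows were 180 bp in OVA and 120 bp in PBS, so these folds and percentiles are not like measures. A further 5′ peak, from 39489677 to 39489796 in OVA and to 39489826 in PBS, had folds of 11.8 and 10.4 with a log10 p of -3.19 and -2.75. All 4 calls at these 2 sites thus had little evidence, whatever their fold.

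Near the 3′ end of Nr3c1, a peak of 390 bp at 39414162 to 39414551 had the same coordinates in both lists, with folds of 2.92 in OVA and 2.35 in PBS. The annotation assigned it to Gm15337, a neighbouring gene whose transcript has the biotype antisense, although it was called on Nr3c1. The peak lies upstream of the start of Gm15337, at a distance given as -25126 bp, and Nr3c1 is the one RefSeq gene over it.

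Fkbp5 encodes a co-chaperone that lowers the hormone affinity of the receptor and is itself induced by it, which closes a negative feedback loop. It had the lowest enrichment of the 9 genes, with 3 peaks in OVA and 2 in PBS, all toward the 3′ end of the gene on chromosome 17, minus strand. Folds were 1.73, 2.97 and 2.94 in OVA and 1.64 and 2.23 in PBS, none of them above percentile 25.8 of its list. Both OVA peaks of the 9 genes that lacked a PBS counterpart were on this gene.

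The first of these, at 28399124 to 28399394, had a fold of 1.73 and a log10 p of -4.32. The other, at 28399723 to 28399903, had a fold of 2.97 and a log10 p of -23.1, against a median of 2.87 and -4.2 over the 5286 OVA peaks without a counterpart. Its fold was thus close to the median of unmatched OVA peaks and its log10 p far below theirs. That median is over peaks of any fold, and log10 p also moves with read number. The nearest PBS peak on Fkbp5 was 988 bp away. Absence from a list means that no peak was called there, not that no mark was present.

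Farther from the 3′ end, the third OVA peak of Fkbp5 ran over 2 blocks from 28400951 to 28402648, 241 bp in all. The PBS list held 2 peaks there, one of 60 bp at 28400892 to 28400951 that shared 1 bp with it, and one at 28401011 to 28402648 that shared 181 bp. The larger PBS peak had a fold of 2.23 at percentile 14.8 and a log10 p of -8.26, and its OVA counterpart a fold of 2.94 at percentile 25.5 and a log10 p of -22.3. On this gene the OVA list therefore covered more sequence, 693 bp against 241 bp.

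**Figure D1:**
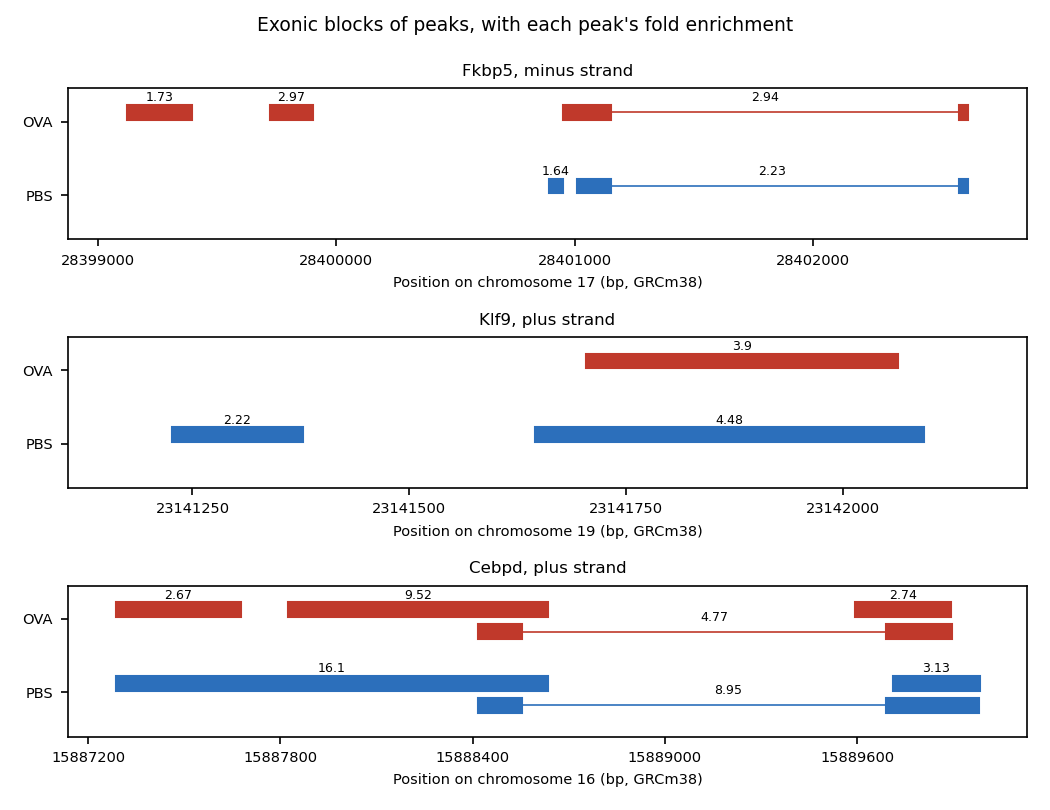
Exonic blocks (bars) of the peaks on Fkbp5, on the 5′ part of Klf9 and on Cebpd, by genomic position in bp on GRCm38, with thin lines joining the blocks of 1 peak and numbers giving its fold enrichment. Fkbp5 has 2 peaks in OVA alone, Klf9 has 1 in PBS alone, and 1 Cebpd peak of 1349 bp in PBS overlaps 3 peaks in OVA.

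Tsc22d3 encodes GILZ, a leucine zipper protein that carries part of the anti-inflammatory action of glucocorticoids. It had 1 peak per list in the 3′ UTR, on the minus strand of chromosome X, at 140540396 to 140540935 in OVA and to 140540965 in PBS. Folds were 11.9 and 11.0, at percentiles 76.8 and 75.7. The peak ended 868 bp short of the gene's 3′ end and differed little in rank between the lists.

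Dusp1 encodes MKP-1, a phosphatase that switches off MAP kinases. Its peak in the 3′ UTR ran from 26505799 on chromosome 17, minus strand, to 26506455 in OVA and to 26506514 in PBS. Folds were 11.1 in OVA and 12.8 in PBS, at percentiles 74.0 and 81.5, with a log10 p of -1930 and -2800. Its 5′ peak had folds of 10.2 and 12, at percentiles 70.8 and 78.9. Both Dusp1 peaks ranked somewhat higher in the PBS list.

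The 5′ peak of Dusp1 held a main block at 26508149 to 26508519 in OVA and at 26508059 to 26508519 in PBS, plus a block of 18 bp at 26552036 to 26552053. That small block lies in the RefSeq span of another gene, 1700049J03Rik. The main block covered the first 50 transcribed bases that RefSeq gives for Dusp1 on GRCm38.p6. The RefSeq table of start sequences used here held 6 of the 9 genes, as 14 windows. OVA peaks covered the first 50 transcribed bases of 1 of these windows and PBS peaks of 2. Nr3c1, Zbtb16 and Cebpd were not in that table and are outside this tally. For Cebpd, peaks of both lists begin at the first base of the gene, 15887286, so Dusp1 is not the only start covered in both.

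GGACT, 1 form of the motif in which m6A is commonly placed, was searched in those bases on the transcript strand and on the opposite strand. It occurred in the Dusp1 window alone among the 14, on the transcript strand, from base 7. The stretch is shown because peaks of both lists lay over it, with the motif in capitals, from chr17:26508443-26508472 on the minus strand.
Dusp1 transcript start: agtgaaGGACTggcgggaggaaagcgcggt
Of 32851 such windows in the RefSeq table, 5.76% held the motif on the transcript strand and 4.87% on the opposite one. A match of these letters is a description and not evidence of a methylated base.

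Among the transcription factors, Zbtb16 encodes PLZF, a zinc finger repressor strongly induced by glucocorticoids in many cells. Its larger peak, labelled 5′ UTR, lay at 48831994 to 48833068 on chromosome 9 in OVA and at 48832023 to 48833068 in PBS. Folds were 17.7 and 13.5, at percentiles 89.1 and 83.2, with a log10 p of -1310 and -3120. It was the second most enriched OVA peak of the 9 genes.

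A smaller Zbtb16 peak lay toward the 3′ end and was assigned to the neighbouring gene Nnmt. The distance to the start of Nnmt is given as -51889 bp in OVA and -52009 bp in PBS. Zbtb16 is the one RefSeq gene over the peak. The peak covered 120 bp at 48656923 to 48657042 in OVA, with a fold of 10.7 at percentile 72.6 and a log10 p of -15.5. In PBS it covered 300 bp at 48656863 to 48657162, with a fold of 6.21 at percentile 54.7 and a log10 p of -49.5. The OVA call was thus narrower, more enriched and less well supported, and folds over windows of unequal length are not like measures.

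Klf9, a Krüppel-like factor that is a direct target of the receptor, carried the most enriched peak of the 9 genes in both lists. On the plus strand of chromosome 19, it lay at 23164695 to 23165921 in OVA and at 23164725 to 23165951 in PBS, 1227 bp in each. Folds were 37.1 and 32.2, which ranked 374 from the top among OVA peaks and 388 among PBS peaks, at percentiles 98.6 and 98.5. The annotation assigned this peak to the microRNA gene Mir1192, which lies within the span of Klf9, but the peak was called on Klf9.

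Toward the 5′ end, Klf9 had a matched peak with folds of 3.90 in OVA and 4.48 in PBS, at percentiles 36.8 and 42.9. The PBS list also held a peak of 151 bp at 23141226 to 23141376, which begins at the first base of the gene, with a fold of 2.22 and a log10 p of -4.52. No OVA peak overlapped it, and the nearest was 327 bp away. It was the single PBS peak of the 9 genes without a counterpart, and its fold was below the median of 3.45 over the 3773 PBS peaks of that kind, whose median log10 p was -3.58.

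Cebpd encodes C/EBP delta, a leucine zipper transcription factor of the acute phase response. Its short gene on chromosome 16, plus strand, was called differently in the lists. In PBS, 1 peak of 1349 bp ran from 15887286 to 15888634 with a fold of 16.1, at percentile 88.3. In OVA, the same stretch held a peak at 15887286 to 15887675 with a fold of 2.67, at percentile 21.6, and another at 15887825 to 15888634 with a fold of 9.52, at percentile 68.5. The windows differ in length, so these folds and percentiles are not like measures.

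Farther toward the 3′ end, a Cebpd peak of 2 blocks began at 15888416 and ended at 15889895 in OVA and at 15889981 in PBS, with folds of 4.77 and 8.95 at percentiles 44.5 and 67.8. A last peak lay at 15889593 to 15889893 in OVA with a fold of 2.74 and at 15889713 to 15889982 in PBS with a fold of 3.13. The last peak and the second block of the former lie beyond the RefSeq end of Cebpd and within the span of Spidr, and peaks called on Spidr overlap them. The 2-block peak also shares sequence with the Cebpd peak before it, so these calls are not independent. In all, 3 of the 20 OVA and 3 of the 19 PBS peaks overlap a peak of their own list. Among all peaks, 11.3% in OVA and 11.2% in PBS did so, and counts this small are not read as apart from those shares.

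Sgk1 encodes a serine/threonine kinase that acts on ion transport, sodium channels of the epithelium included. It had 1 peak per list in the 3′ UTR, on the plus strand of chromosome 10, at 21998678 to 21999096 in OVA and at 21998707 to 21999096 in PBS. Folds were 3.40 and 3.15, at percentiles 31.2 and 28.9, with a log10 p of -847 and -389. Low enrichment thus came with strong evidence here.

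Errfi1 encodes MIG6, an inhibitor of the epidermal growth factor receptor. Its peak of 1463 bp in the 3′ UTR, at 150866326 to 150867788 on chromosome 4, plus strand, had the same start and end in both lists. Folds were 6.51 in OVA and 5.69 in PBS, at percentiles 55.4 and 51.6. It stood near the middle of each list.

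**Figure D2:**
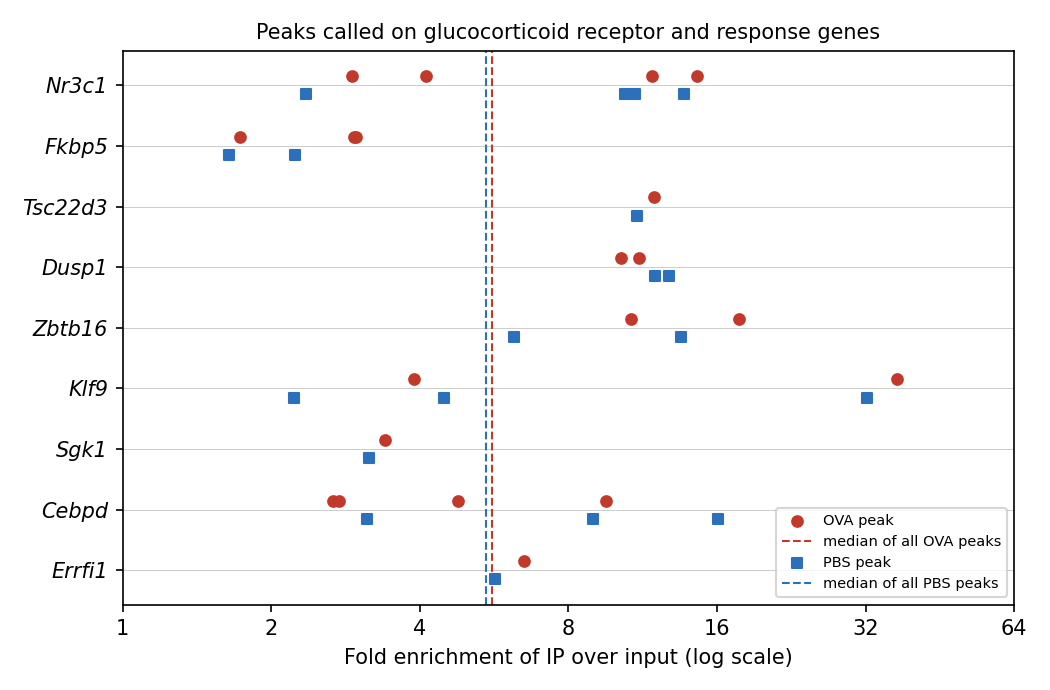
Fold enrichment of IP over input (log axis) for each of the 20 OVA peaks (circles) and 19 PBS peaks (squares) on the 9 genes, with dashed lines at the median of all peaks, 5.59 in OVA and 5.44 in PBS. Fkbp5 and Sgk1 lie below both medians, while Tsc22d3, Dusp1, Zbtb16 and Errfi1 lie above both in either list.

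Across the 9 genes, the median fold enrichment was 5.64 over the OVA peaks and 8.95 over the PBS peaks, beside 5.59 and 5.44 over all peaks. Folds ran from 1.73 to 37.1 in OVA and from 1.64 to 32.2 in PBS. The peaks above the median of their own list numbered 10 of 20 in OVA and 12 of 19 in PBS. Their 95% intervals by order statistics, 2.97 to 11.1 and 3.13 to 12.8, each held the median of the whole list. They treat peaks as independent, which several peaks on 1 gene are not, and are therefore too narrow. With protein-coding assigned transcripts alone the medians were 10.2 and 10.7, beside 5.99 and 5.82 over all peaks with such a transcript. The distance to the whole list therefore depends on the peaks taken, as does the gap between the medians of the lists. Folds of the lists are not on a stated common scale. The median percentile of all peaks on the 9 genes was 49.9 in OVA and 67.8 in PBS, a difference that was not tested.

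A pair was formed where an OVA and a PBS peak were each other's largest block overlap, which gave 16 pairs on the 9 genes and 20531 overall. The percentile was higher in OVA in 10 of the 16, which is 62.5%, against 57.6% of all pairs. It differed by 20 points or more in 2 of the 16, which is 12.5%, against 15.6% of all pairs. Those were the peak at the annotated start of Nr3c1 and the 2-block peak of Cebpd, both higher in PBS, and the larger Cebpd pair differed by 19.8 points. In each of these pairs the windows differ in length between the lists, so the percentiles are not like measures. Shares this near the background are no result about these genes.

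The number of peaks was the same in both lists for 6 of the 9 genes, against 51.9% of all genes with a peak in either list. Fkbp5 and Cebpd had more peaks in OVA and Klf9 had more in PBS. With each base counted once, Cebpd peaks covered 1503 bp in OVA and 1642 bp in PBS, of which 97 bp and 236 bp were under no Cebpd peak of the other list.

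By the authors' annotation, 13 of the 20 OVA peaks (65.0%, 95% Wilson interval 43.3 to 81.9) and 12 of the 19 PBS peaks (63.2%, 41.0 to 80.9) lay in a 3′ UTR, beside 52.7% of all peaks in each list. All others were labelled 5′ UTR, 35.0% in OVA and 36.8% in PBS, beside 11.6% and 11.4%. None was labelled as another exon, a class that held 35.7% of all OVA peaks and 35.9% of all PBS peaks. Each peak has 1 label, also where it is long or joins several blocks. The PBS peak of 1349 bp that begins at the first base of Cebpd was labelled 3′ UTR. The main Nr3c1 peak, of 3 exonic blocks, was labelled 5′ UTR. The lack of an exon label therefore does not show that no peak lay over coding exons. These intervals cover counting error only and treat peaks as independent. The region label and the assigned transcript are separate entries. The Klf9 peak assigned to Mir1192 and the Nr3c1 peak assigned to Gm15337 were both labelled 3′ UTR. The coding choice thus selects peaks by the assigned transcript and not by the part of the gene they lie in. The assigned transcript was protein-coding for 9 peaks in OVA and 10 in PBS, the Zbtb16 peak assigned to Nnmt included. Among those alone the 3′ UTR share was 22.2% in OVA and 30% in PBS, beside 51.8% and 51.4% of all peaks with such a transcript, so on which side of the whole list the 9 genes stand depends on this choice.

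In the gene annotation of the lists, 4 of the 9 genes carried the term for DNA-binding transcription factor activity, namely Nr3c1, Tsc22d3, Zbtb16 and Cebpd, against 4.43% of 11211 annotated genes. The choice of a receptor and its response genes bears directly on that share. Nr3c1, Zbtb16 and Sgk1 were also annotated to nuclear speckles, as were 2.68% of all annotated genes. The 9 genes share other terms too, and a count this small is not read as apart from that share.

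Of 57 further genes of the pathway, 45 had an OVA peak, 44 a PBS peak and 42 both. For scale, 55.3% of the protein-coding genes of RefSeq had an OVA peak and 53.9% a PBS peak, a base that includes genes not expressed in lung. All 11 coregulators had a peak in both lists, among them the coactivators Ncoa1 to Ncoa3 and the acetyltransferases Crebbp and Ep300. Nrip1, a corepressor, had the highest fold of that list in PBS, 41.7 at percentile 99.3, and a fold of 27.4 in OVA, at percentile 96.7.

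Of 10 chaperones of the receptor, 7 had a peak in OVA, 5 in PBS and 5 in both, not read as apart from the coding genes of RefSeq. Dnajb1 had the highest fold among them in OVA, 11.1, where its peak in PBS had 9.92. In PBS the highest was 13.3, for a peak called on St13 but assigned to Slc25a17, with a log10 p of -3.7. Hspa8 and Bag1 had a peak in OVA alone, with folds of 1.40 and 1.78, the former assigned to Snord14e, and Stip1, Fkbp4 and Ppid had none.

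Among 6 genes of steroid metabolism and related receptors, 5 had an OVA peak and 4 a PBS peak, and 4 had both. H6pd, which supplies the cofactor for the enzyme that regenerates active glucocorticoid, had the highest fold in both, 25.1 and 19.2. Abcb1b, an efflux pump, had a peak in OVA alone, with a fold of 2.50 and a log10 p of -2.08. Hsd11b2 had none, and Hsd11b1 had 1 weakly enriched peak per list, with folds of 1.96 and 1.54.

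Of 30 other genes known to be induced by glucocorticoids, 22 had an OVA peak, 24 a PBS peak and 22 both. Cebpb, the relative of Cebpd, had the highest fold in OVA, 43.0, where its PBS peak, which was longer, had 30.4. Both were called on Cebpb but assigned to other genes, A530013C23Rik in OVA and Tmem189 in PBS. Per1, a clock gene, had the highest in PBS, 31.6, and 28.0 in OVA. The metallothionein gene Mt1 and the sulfotransferase gene Sult1a1 had a peak in PBS alone, with folds of 1.51 and 1.94, while 6 genes had none, Tat and Pck1 among them. All 5 pathway genes with a peak in 1 list alone thus had low folds.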

How the data were processed

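Lung RNA of 3 OVA and 3 PBS mice gave 6 IP and 6 input libraries. The authors cleaned reads with FASTP, aligned them with HISAT2 to the Ensembl mouse genome, ran exomePeak to call peaks and ChIPseeker to annotate them. Tool versions, and how the 3 mice of a group were combined, are not given in the sources used here. The deposited fold enrichment is the authors' ratio of IP over input in a peak. As a score of evidence, the authors deposited log10 values of p and of the FDR.

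Peak starts in the lists count from 0, since 649 OVA peaks begin 1 base before an annotated transcript start and 20 at it; starts are given here counted from 1. The build was read as GRCm38, because 97.7% of OVA peaks called on protein-coding genes overlap the RefSeq GRCm38 position of that gene, and 2683 of 15913 transcripts share an exact boundary with it.

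Overlap meant at least 1 bp of exonic blocks. Alternatives were an FDR under 0.05, a fold of at least 2, either way of naming the gene alone, coding transcripts alone and other definitions of overlap. Pairing by largest overlap and the 20-point limit were chosen after seeing the data. Members and lists were chosen with earlier results of these data known. Named beside the 9 genes were, per pathway list, the gene with the highest fold in each peak list and the genes with peaks in 1 list alone; other genes named were chosen after their values were seen. Some items that this rule names are not reported here. No test between groups was made here, since each group has 1 list. Python 3.11.15, numpy 2.4.6, pandas 2.3.3, scipy 1.17.1 and matplotlib 3.10.9 were used, and the overlap code was tested on simulated data.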

Additional observations from a re-analysis of the deposited data

How the results depend on the processing

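No paired analysis was possible because each group has 1 pooled list, which also left no replicate to leave out. Of 53 alternative values, 45 stayed within 1.5 times the main value for a count, or within its 95% interval for a median or share; over so few peaks these intervals are wide. With coding assigned transcripts alone, 9 OVA and 10 PBS peaks were left, 9 of each overlapped a peak of the other list, and 22.2% of the OVA and 30% of the PBS peaks lay in a 3′ UTR; this choice drops the peaks assigned to non-coding transcripts by construction. With identical start and end required, 2 OVA and 2 PBS peaks had a counterpart, while an overlap of 50% of both peaks gave 16 of each. All 9 genes kept a peak in both lists except with coding assigned transcripts alone, where 6 did. The median fold in OVA ran from 4.77 with assigned symbols alone to 10.2 with coding transcripts alone, and in PBS from 8.95 to 10.7. Percentiles moved by at most 3.77 points when ranked among peaks of the same region and 1.04 when ranked among peaks with an FDR under 0.05. Neither the reads behind a peak nor the spread between mice could be read from the lists.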
